A study of Mus musculus with 4 samples.

Results

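The 4610 regions described here are stretches of the mouse genome that a microarray design lists as long non-coding RNA and names only by position and strand, without a gene symbol. They are the names of non-control spots that start with a chromosome and coordinates on mouse build mm9, ending in F for the forward or R for the reverse strand. They carry 16194 spotted sequences out of 55681 on the whole array, where 30211 other names carry the remaining 39487. The samples were regulatory T cells (Tregs), a CD4 lineage that holds immune responses in check. There were 4 groups, wild-type (WT) and deltaDC Tregs from spleen and the same 2 genotypes from thymus, all of male C57BL/6 mice whose age the labels do not give. What deltaDC stands for is not written out in the labels, and neither is the allele or promoter behind it. In the field the name is used for mice depleted of dendritic cells. Cells of 3 mice per genotype were pooled, sorted as live CD4+CD25+ cells and not on Foxp3, and labelled with Cy3 from 10 ng of RNA. Each group has 1 array, so no pairwise difference has a p-value, and the number of arrays limits every value. In bulk samples of this kind, fewer cells of a type and less RNA per cell cannot be told apart.

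Long non-coding RNAs are transcripts, often spliced and polyadenylated, that do not encode a long protein. Many were catalogued as intervals of the genome before they had names, and some are known to act on genes next to them. In the T cell lineage, such RNAs include hosts of microRNAs and transcripts near genes of T cell maturation, activation and survival. Because both strands of an interval can be transcribed, the strand letter is part of a region's identity here.

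Each spotted sequence is 60 bases long, and a region has 1 to 10 of them (median 3). The median region spans 10676 bases, the shortest 62. There are 2318 forward and 2289 reverse regions, and 3 regions without a letter. A set of 1067 intervals is listed on both strands, so that 3543 distinct intervals make up the 4610 regions. Of the 16194 sequences, 16076 have a mapped position in the files, 16068 of them inside their region. The sequences below are those on which the results turn, as the scanner files list them, written 5′ to 3′ on the strand named, with mm9 coordinates. Capitals mark AATAAA or ATTAAA, the common polyadenylation signals, unless stated otherwise. On the printed strand, 6.27% of all position-named sequences hold either of these hexamers, against 16.7% of the other spotted sequences.

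The first set lies between Prl5a1 and Sox4 on chromosome 13, in the region chr13:28947034-28949166_R, whose signal was far higher on both thymus arrays.
Prl5a1 to Sox4 sequence 1 (chr13:28947106-28947165, reverse strand): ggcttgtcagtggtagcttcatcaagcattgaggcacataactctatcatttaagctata
Prl5a1 to Sox4 sequence 2 (chr13:28947166-28947225, reverse strand): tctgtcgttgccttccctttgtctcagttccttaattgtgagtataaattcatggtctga
Prl5a1 to Sox4 sequence 3 (chr13:28947836-28947895, reverse strand): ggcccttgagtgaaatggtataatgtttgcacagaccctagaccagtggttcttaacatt

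The second set, from chr1:139856545-139857204_F between Nr5a2 and Ptprc, belongs to a run of forward-strand regions that were also brighter in thymus.
Nr5a2 to Ptprc sequence 1 (chr1:139856842-139856901, forward strand): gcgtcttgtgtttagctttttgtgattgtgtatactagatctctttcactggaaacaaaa
Nr5a2 to Ptprc sequence 2 (chr1:139857024-139857083, forward strand): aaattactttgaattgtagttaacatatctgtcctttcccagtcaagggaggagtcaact
Nr5a2 to Ptprc sequence 3 (chr1:139857084-139857143, forward strand): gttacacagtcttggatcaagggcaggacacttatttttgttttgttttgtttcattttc

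The next set is from chr10:83181374-83249774_F, which holds a probe of 1500009L16Rik on its own strand and stood apart on the WT spleen array.
1500009L16Rik sequence 1 (chr10:83224650-83224709, forward strand): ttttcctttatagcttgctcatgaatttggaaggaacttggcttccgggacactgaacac
1500009L16Rik sequence 2 (chr10:83224710-83224769, forward strand): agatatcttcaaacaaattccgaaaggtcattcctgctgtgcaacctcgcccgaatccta
1500009L16Rik sequence 3 (chr10:83224795-83224854, forward strand): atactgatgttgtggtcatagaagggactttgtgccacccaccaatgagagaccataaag
1500009L16Rik sequence 4 (chr10:83224927-83224986, forward strand): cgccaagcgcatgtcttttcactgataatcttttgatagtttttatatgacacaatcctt

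The region chr16:40471828-40472481_F, between Igsf11 and Lsamp, was brighter in WT than in deltaDC Tregs of both organs, and its sequence 3 holds the hexamer ATTAAA near its end.
Igsf11 to Lsamp sequence 1 (chr16:40472230-40472289, forward strand): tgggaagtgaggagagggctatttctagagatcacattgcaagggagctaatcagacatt
Igsf11 to Lsamp sequence 2 (chr16:40472292-40472351, forward strand): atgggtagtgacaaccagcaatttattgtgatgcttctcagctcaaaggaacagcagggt
Igsf11 to Lsamp sequence 3 (chr16:40472353-40472412, forward strand): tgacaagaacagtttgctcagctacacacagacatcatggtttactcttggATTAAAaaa

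The region chr2:128142035-128142481_R holds a probe of Morrbid and was brightest on the deltaDC spleen array.
Morrbid sequence 1 (chr2:128142036-128142095, reverse strand): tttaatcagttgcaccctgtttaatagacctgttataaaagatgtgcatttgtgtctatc
Morrbid sequence 2 (chr2:128142132-128142191, reverse strand): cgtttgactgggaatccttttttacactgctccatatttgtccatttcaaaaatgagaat
Morrbid sequence 3 (chr2:128142199-128142258, reverse strand): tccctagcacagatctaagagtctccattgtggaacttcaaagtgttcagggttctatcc

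The region chr6:31115515-31168433_R, between Klf14 and Mkln1 where RefSeq places Lncpint, was brightest on the WT spleen array.
Lncpint reverse strand, sequence 1 (chr6:31115516-31115575, reverse strand): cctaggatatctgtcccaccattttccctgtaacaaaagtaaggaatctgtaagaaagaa
Lncpint reverse strand, sequence 2 (chr6:31115578-31115637, reverse strand): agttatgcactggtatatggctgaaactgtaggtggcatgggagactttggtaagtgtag
Lncpint reverse strand, sequence 3 (chr6:31115638-31115697, reverse strand): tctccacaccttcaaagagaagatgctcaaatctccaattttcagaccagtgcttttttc

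The region chr8:26212577-26218527_R, between Plekha2 and Tacc1, was brightest on the deltaDC thymus array.
Plekha2 to Tacc1 sequence 1 (chr8:26213965-26214024, reverse strand): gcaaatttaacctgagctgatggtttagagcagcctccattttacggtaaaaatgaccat
Plekha2 to Tacc1 sequence 2 (chr8:26214064-26214123, reverse strand): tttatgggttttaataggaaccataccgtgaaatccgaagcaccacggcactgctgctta
Plekha2 to Tacc1 sequence 3 (chr8:26214124-26214183, reverse strand): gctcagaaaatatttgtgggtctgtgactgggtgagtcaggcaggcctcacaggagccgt
Plekha2 to Tacc1 sequence 4 (chr8:26214545-26214604, reverse strand): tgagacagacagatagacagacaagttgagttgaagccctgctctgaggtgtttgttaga

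The region chr12:88235624-88264465_R, between Irf2bpl and Cipc, is shown whole because only its sequence 2 was bright.
Irf2bpl to Cipc sequence 1 (chr12:88245210-88245269, reverse strand): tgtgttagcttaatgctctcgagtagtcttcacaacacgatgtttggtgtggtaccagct
Irf2bpl to Cipc sequence 2 (chr12:88245321-88245380, reverse strand): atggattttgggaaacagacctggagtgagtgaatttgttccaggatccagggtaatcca
Irf2bpl to Cipc sequence 3 (chr12:88245421-88245480, reverse strand): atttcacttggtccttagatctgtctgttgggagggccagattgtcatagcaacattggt
Irf2bpl to Cipc sequence 4 (chr12:88245481-88245540, reverse strand): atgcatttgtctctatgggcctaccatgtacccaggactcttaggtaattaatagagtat
Irf2bpl to Cipc sequence 5 (chr12:88245589-88245648, reverse strand): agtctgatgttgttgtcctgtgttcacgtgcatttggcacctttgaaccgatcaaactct

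In the last 2 sets, capitals mark the 58 bases that a forward and a reverse sequence share, so that each pair reads the same stretch of DNA from opposite strands. Their signals are given further on.
Klf14 to Mkln1, forward sequence (chr6:31235063-31235122, forward strand): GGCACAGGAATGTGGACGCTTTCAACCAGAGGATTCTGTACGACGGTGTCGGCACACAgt
Klf14 to Mkln1, reverse sequence (chr6:31235061-31235120, reverse strand): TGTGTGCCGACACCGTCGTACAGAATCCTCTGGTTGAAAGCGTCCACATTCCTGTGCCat
Cd69, forward sequence (chr6:129182803-129182862, forward strand): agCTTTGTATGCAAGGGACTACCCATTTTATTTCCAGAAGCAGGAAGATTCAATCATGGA
Cd69, reverse sequence (chr6:129182805-129182864, reverse strand): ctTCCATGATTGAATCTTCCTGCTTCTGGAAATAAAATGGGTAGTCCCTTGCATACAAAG

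Most of these sequences were not well above background in Tregs. A sequence was taken as measured on an array when the scanner software set its flag for well above background. In spleen that held for 5429 position-named sequences of WT (33.5%) and 5617 of deltaDC (34.7%). In thymus the counts were 5296 (32.7%) and 5277 (32.6%). Of all other probes, 54.0% to 56.7% passed. On all 4 arrays together, 4378 position-named sequences (27.0%) were measured, against 51.2% of the others, and 9474 (58.5%) were measured on none. The scanner's looser flag, for a positive and significant signal, held for 9930 and 9810 position-named sequences in WT and deltaDC spleen and for 9336 and 9341 in thymus. Of the 3385 regions with at least 3 sequences, 1766 had no sequence measured on all 4 arrays, and 403 had every sequence measured on all 4. Between 406 and 433 sequences exceeded a signal of 1000 on an array. Signals here are the deposited background-subtracted intensities, not scaled between arrays.

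**Figure D1:**
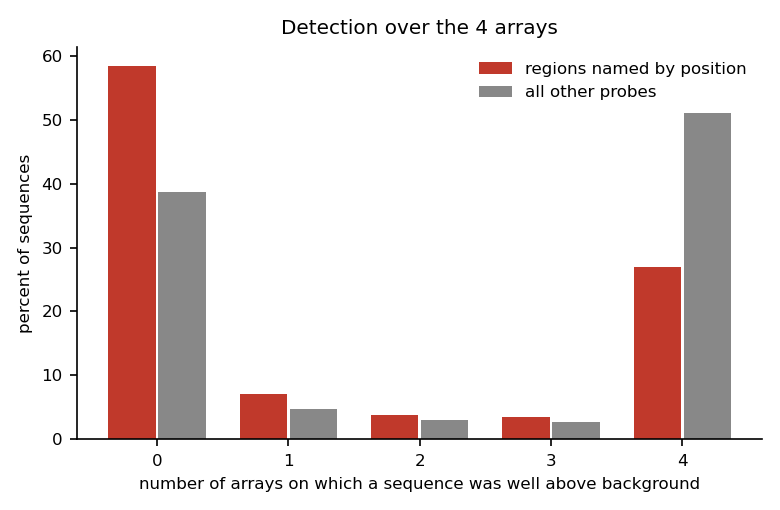
Percent of spotted sequences (y axis) by the number of arrays on which they were well above background (x axis), for the 16194 position-named sequences in red and the 39487 other probes in grey. Position-named sequences pile up at 0 arrays (58.5%) and the other probes at 4 arrays (51.2%).

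The brightest position-named sequences lay beside well-known abundant RNAs. A sequence in chr19:5801802-5802597_R, near the gene probe of Malat1, a nuclear long non-coding RNA of most cell types, had signals of 331986 and 312537 in WT and deltaDC spleen and of 305554 and 275473 in WT and deltaDC thymus. Another, in chr17:39982023-39983277_F, which holds a probe of the ribosomal RNA precursor Rn45s, read 157130, 148494, 132547 and 150727 in the same order. Neither differed by 2-fold between any arrays.

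Each member sequence is spotted once. The spread between repeated spots of 399 other probes gives the spot error, a standard deviation (SD) of 0.21 to 0.23 on the log2 scale under a signal of 50, 0.11 to 0.13 from 50 to 200, 0.07 to 0.08 from 200 to 1000, and 0.05 above that. It holds no variation between mice or labellings. Differences below are log2 values after each array's 75th percentile (signals of 340.2, 391.2, 406.5 and 417.5 in the order above) was subtracted, and a difference is counted from 2-fold, or 1 on this scale. For a sequence below background on 1 of the arrays compared, only a bound is given. It sets the bright level against the higher of the sequence's own dim level and the lowest level flagged well above background on that array.

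The sorted cells had the profile of Tregs: all 10 Treg marker genes on the list used (Foxp3, Il2ra, Ctla4, Ikzf2 and others) and all 6 T cell markers on the array were well above background on every array. Markers of other cells were present and uneven. The 12 markers of natural killer (NK) and innate-like lymphocytes had a summed signal of 3446 in WT and 35160 in deltaDC spleen, and of 15372 in WT and 18099 in deltaDC thymus, with 10, 12, 10 and 10 of them well above background. In the same order, the 9 neutrophil markers summed to 162, 10072, 1000.2 and 2652, with 2, 9, 6 and 6 above background. The 6 erythroid markers summed to 1840, 5868, 4316 and 18445, with 4 above background on every array. Of the 11 dendritic cell and macrophage markers, 4, 8, 9 and 8 were above background. Their sums of 62634, 47908, 53477 and 48439 were mostly the signal of Siglech, while Itgax read 5.72 (below background), 94.6, 222 and 187, and Xcr1 and Clec9a were below background on every array. The 2 CD8 T cell markers summed to 335, 315, 772 and 1024, with 1, 1, 2 and 2 above background, and the 6 thymic epithelium markers to 104, 136, 285 and 456, with 1, 1, 3 and 4.

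The comparison of organs asked how thymic Tregs differ from splenic ones. In WT mice, regions between Prl5a1 and Sox4, between Nr5a2 and Ptprc, between Katnal1 and Hmgb1, and at 1500009L16Rik were brighter in thymus, while regions between Klf14 and Mkln1, between Zbtb38 and Pxylp1, and between Igsf11 and Lsamp were dimmer. The WT arrays had 4751 position-named sequences measured on both. Of these, 112 (2.36%) were higher in thymus by 2-fold or more and 507 (10.67%) lower. Over all probes the shares were 4.82% higher and 4.96% lower, the position-named sequences included. The difference between these shares was not tested. Their median difference was −0.28, and that of all probes −0.14. In deltaDC mice, 171 of 4750 (3.6%) were at least 2-fold higher in thymus and 270 (5.68%) lower, beside 4.67% and 5.35% of all probes. The 2 organ comparisons use no array in common. Among the 4378 sequences measured on every array, 52 were higher in thymus by 2-fold or more in both genotypes (2.16% of all probes were) and 148 lower in both (1.64% of all probes). Across these sequences, which are not independent of each other, the 2 organ differences had Pearson's r of 0.56, and across the other probes 0.57.

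The strongest run of thymus-high regions lay on the reverse strand between Prl5a1 and Sox4 on chromosome 13. Sox4 is a transcription factor of immature lymphocytes, and RefSeq places 12 genes between the 2, among them the long non-coding RNA 2610307P16Rik. The 3 sequences of chr13:28947034-28949166_R, printed above, read as follows. Sequence 1 had signals of 166 in WT spleen, 138 in deltaDC spleen, 2151 in WT thymus and 2030 in deltaDC thymus. Sequence 2 had 155, 122, 2034 and 2003, and sequence 3 had 25.4, 22.9, 378 and 360. The thymus arrays were thus far above both spleen arrays in all 3, with log2 differences of 3.44 to 3.64 in WT and 3.79 to 3.95 in deltaDC, and no genotype difference reached 1. A sequence of chr13:28700385-28760363_R read 81.4, 39.9, 1155 and 1015, the highest organ difference in deltaDC mice (4.58). In chr13:28760289-28977218_R, 1 sequence was not well above background in either spleen and read 286 and 300.4 in thymus, at least 15.8-fold higher in WT and at least 30.1-fold higher in deltaDC.

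Of the 34 reverse-strand sequences in these 12 regions, 27 were well above background on each thymus array, while spleen had 15 in WT and 11 in deltaDC. In WT mice, 11 of 15 measured were at least 2-fold higher in thymus (median 1.96), and in deltaDC mice 9 of 11 (median 2.21). With another background correction (normexp, whose offset of 50 shrinks the differences of dim sequences) the counts were 9 of 15 and 8 of 11, and none was lower in either. None of the 26 measured on both thymus arrays differed 2-fold between genotypes. A single bright sequence of chr13:28477490-28985604_R did not follow the others, at 5382, 5420, 5176 and 6113. The forward strand held 8 sequences in 2 regions, none of them above background on all 4 arrays. The 3 Sox4 gene probes were likewise far higher on both thymus arrays than on either spleen array, for example 562, 457, 6610 and 7455. The summed CD8 and thymic epithelium markers given above were also higher on both thymus arrays, as was the summed signal of 10 B cell markers (1956, 2191, 3793 and 7891 in the same order, with 4, 7, 8 and 9 above background). The summed signal of the 10 Treg markers was higher on both thymus arrays too (162485, 162879, 224171 and 248316). These sums are of unscaled signals, some of them below background. The part of the cells behind these markers in the organ differences was not tested.

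Between Nr5a2 and Ptprc on chromosome 1, RefSeq places the microRNA genes Mir181a-1 and Mir181b-1. The miR-181 family is known to tune the sensitivity of the T cell receptor in thymocytes. Here 22 forward-strand sequences lie in 6 regions. In chr1:139822286-139822985_F the 3 sequences had signals of 291, 168, 1104 and 913, then 353, 246, 1401 and 1246, then 529, 348, 1876 and 1806, in the order of arrays used above. All 3 were highest on the thymus arrays and lowest on deltaDC spleen. The sequences of chr1:139856545-139857204_F printed above had the same order of organs: sequence 1 read 37.9, 28.4, 184 and 177, sequence 2 read 47.0, 25.8, 160 and 190, and sequence 3 read 120, 81.3, 480.3 and 434. At least 2-fold higher in thymus were 14 of 16 measured in WT (median 1.67, or 10 of 16 with normexp) and 14 of 15 in deltaDC (median 2.29). On the reverse strand of the same stretch 15 sequences were spotted, and none of the 2 measured in WT or 3 measured in deltaDC differed 2-fold. Between the 2 spleen arrays, 7 of 15 forward sequences were at least 2-fold lower in deltaDC (median −0.96), a count that fell to 1 with normexp. Ptprc, which encodes the leukocyte antigen CD45, read 26652, 30928, 31790 and 32418.

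Between Katnal1 and Hmgb1 on chromosome 5, reverse-strand sequences were mostly below background in spleen. One sequence of chr5:149751979-149808240_R read 13.9 and 12.6 in WT and deltaDC spleen, neither well above background, and 623 and 507 in thymus, at least 34.4-fold higher in WT and at least 37.9-fold in deltaDC. The annotated probe LOC101056197 in the same stretch read 6.28, 4.95, 406 and 338, its spleen signals likewise below background. Of 17 reverse sequences there, 10 were above background on WT thymus and 2 on WT spleen. The 4 measured forward sequences did not differ 2-fold between organs in either genotype. On chromosome 15, 79527 bases from the nearest gene probe, that of Ywhaz, the 3 sequences of chr15:36800254-36809571_R were also brighter in thymus. One of them read 3.93 and 3.94 in spleen, both below background, and 200.5 and 285 in thymus, at least 11.1-fold higher in WT and 28.6-fold in deltaDC.

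The additive fit of genotype and organ over the 4 arrays (limma, 27951 probes well above background on at least 2 arrays) is the test given here, with 1 residual degree of freedom. Fits of organ alone and of genotype alone were run as alternatives. For organ it called 24 of 5571 position-named sequences (0.431%) at a Benjamini-Hochberg adjusted p under 0.05, 21 of them higher in thymus and 3 lower. Over all probes tested, 0.769% were called higher and 0.0644% lower. Without adjustment, 1293 position-named sequences had p under 0.05, and the smallest adjusted p was 0.039. The stretch from Prl5a1 to Sox4 held 9 of the 24, that from Katnal1 to Hmgb1 5, the Ywhaz region 2, and the stretches from Nr5a2 to Ptprc and from Igsf11 to Lsamp 1 each. Only 4 of the 24 were well above background on all 4 arrays, while 17 were measured on both thymus arrays and neither spleen array, so the spleen values behind those 17 are background. Those 17 passed the filter only through the arrays where they were high, so the tally by stretch is no evidence of its own. As bounds on the mean over the 2 genotypes, a sequence of chr14:33923944-34003394_R was at least 14.1-fold higher in thymus. One of chrX:98989930-98994344_F was at least 8.15-fold higher. The nearest gene probes, of Wdfy4 and of the chemokine receptor gene Cxcr3, lay 22695 and 62951 bases from these regions. Called lower was a sequence of chr1:196843592-196865102_F near Cd46, with signals of 77.3, 125, 12.4 and 13.5, the thymus values below background, at least 6.65-fold lower in thymus. The calls depended on the processing: 1 of the 24 was called, and no other, when sequences had to be above background on all 4 arrays, and 0 were called with quantile normalization or with the deposited matrix.

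**Figure D2:**
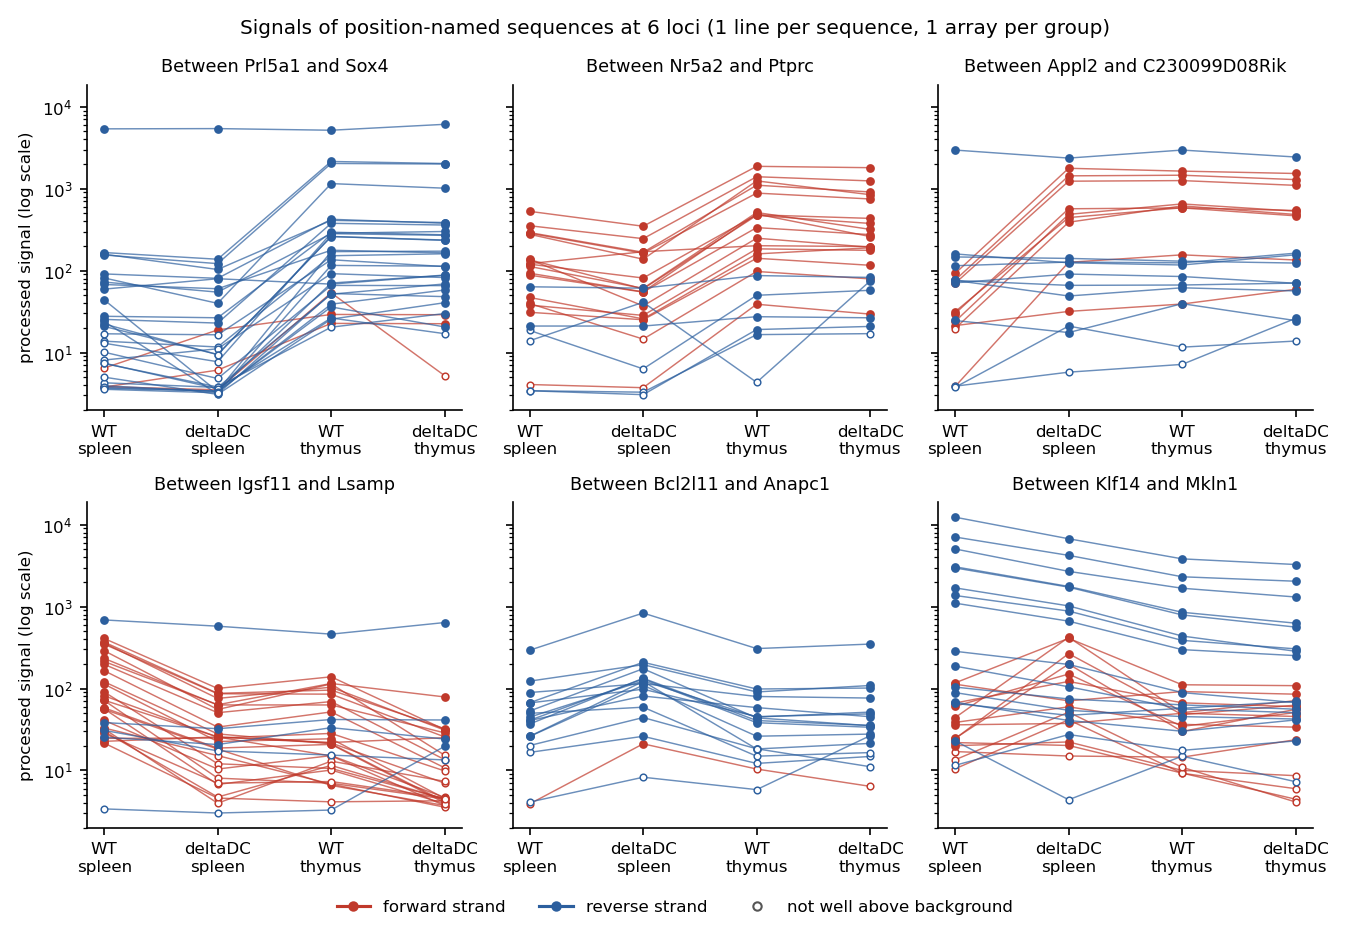
Processed signal (y axis, log scale) of each position-named sequence on the 4 arrays (x axis) at 6 stretches of the genome named by their flanking genes, 1 line per sequence, forward strand red and reverse blue, open circles not well above background. Reverse sequences between Prl5a1 and Sox4 and forward ones between Nr5a2 and Ptprc are high on both thymus arrays, forward ones between Appl2 and C230099D08Rik are low on WT spleen alone, and forward ones between Igsf11 and Lsamp fall from WT spleen to deltaDC thymus.

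Among regions dimmer in thymus were those on the reverse strand between Klf14 and Mkln1 on chromosome 6, where RefSeq places Lncpint, a long non-coding RNA known as a target of p53, and the microRNA genes Mir29a and Mir29b-1. In chr6:31078802-31079644_R, the 3 sequences read 12354, 6738, 3829 and 3266, then 7074, 4223, 2314 and 2041, then 5057, 2694, 1676 and 1311. In chr6:31115515-31168433_R, sequence 1 printed above read 2968, 1727, 792 and 562, sequence 2 read 3065, 1763, 853 and 628, and sequence 3 read 1102, 665, 298 and 252. WT spleen was highest and deltaDC thymus lowest in all 6. At least 2-fold lower in thymus were 12 of 14 measured in WT (median −1.94) and 10 of 15 in deltaDC (median −1.14). Between spleen arrays, 3 of 14 were at least 2-fold lower in deltaDC (median −0.94), and between thymus arrays 0 of 14. The 3 probes of the annotated transcript AB041803 in this stretch had the same order of arrays, for example 3744, 2029, 1091 and 834. Mkln1 itself read 816, 821, 1005 and 1055.

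Between Zbtb38 and Pxylp1 on chromosome 9, reverse-strand sequences of chr9:96664617-96683617_R were bright in spleen and dim in thymus. The brightest read 309, 483, 90.9 and 43.2, and another read 142, 225, 27.3 and 15.8, the last below background. All 5 reverse sequences measured in WT (median −2.32) and both measured in deltaDC (median −2.92) were at least 2-fold lower in thymus. For a sequence of chr9:96632664-96653249_R, at 93.1, 218, 22.3 and 4.44 with the last value below background, deltaDC thymus was at least 13.7-fold below deltaDC spleen. One gene probe of Pxylp1 read 927, 1472, 618 and 570. Another read 29.7 on deltaDC spleen and was below background on every other array. Reverse-strand sequences on the side of Ikzf2, the gene of the Treg transcription factor Helios, had a smaller difference in the same direction: 2492, 2032, 1543 and 1299 for one of chr1:69531191-69570566_R. There 1 of 9 measured was 2-fold lower in WT thymus (median −0.95), while an Ikzf2 gene probe read 7037, 8022, 9840 and 9433.

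The comparison of spleen Tregs asked what differs between deltaDC and WT mice in the periphery. Sequences at 1500009L16Rik, at Morrbid and on the forward strand between Klf14 and Mkln1 were brighter in deltaDC, and those between Igsf11 and Lsamp were dimmer. The spleen arrays had 4911 position-named sequences measured on both. Of these, 78 (1.59%) were higher in deltaDC by 2-fold or more and 376 (7.66%) lower, while 4.28% of all probes were higher and 3.54% lower. The position-named median was −0.25 and that of all probes −0.08. The difference between these shares was not tested. The WT spleen array is common to this comparison and the organ comparison in WT. Of the 4378 sequences measured on all 4 arrays, 98 were at least 2-fold brighter on WT spleen than on each other array, 2.24% against 1.06% of all probes. Dimmer there than on each other array were 25 (0.571%), beside 1.57% of all probes. On deltaDC spleen, 26 were brighter (0.594%, all probes 1.66%) and 30 dimmer (0.685%, all probes 0.505%).

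The lower median was not the same at all base compositions. Sequences under 40% G and C had a median spleen difference of −0.36, those from 40% to 50% −0.27 and those with more −0.14. The other probes, at −0.09, −0.04 and 0.05, were ordered alike and less low in each class. The part of base composition in the counts was not tested beyond these classes.

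**Figure D3:**
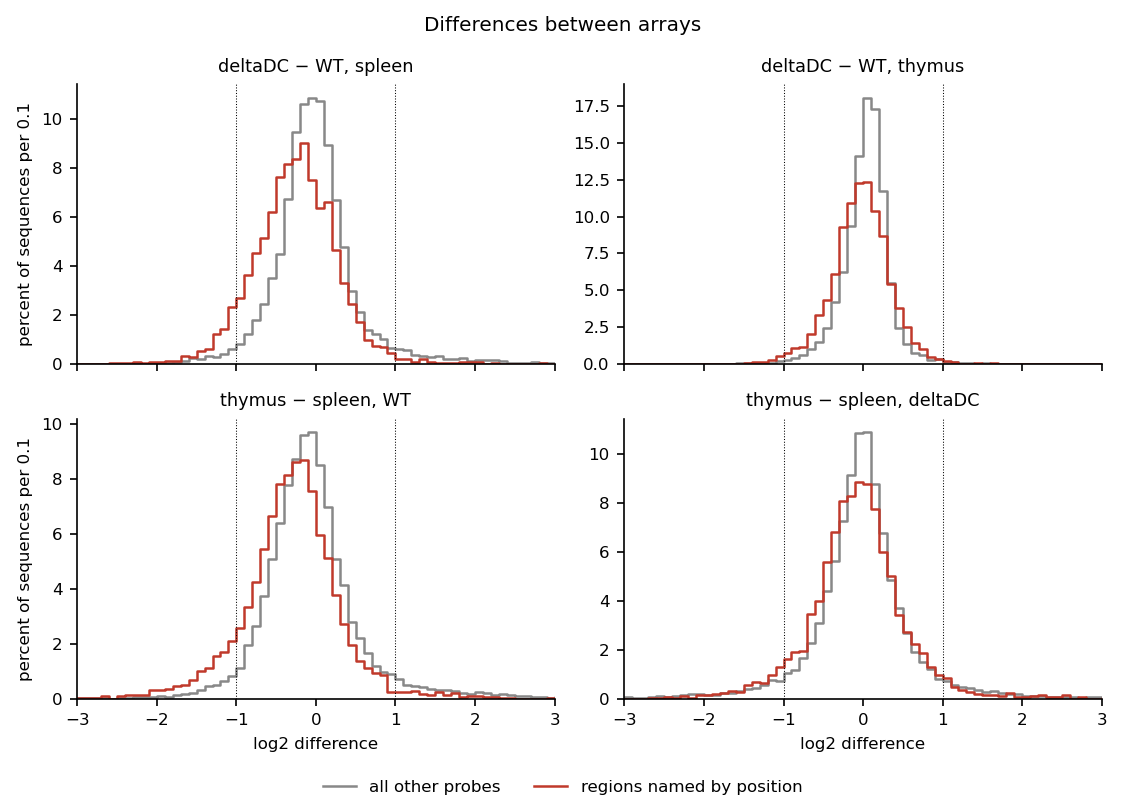
Percent of measured sequences per 0.1 log2 units (y axis) against the log2 difference of the 2 arrays (x axis) in the 4 comparisons, position-named sequences in red and all other probes in grey, dotted lines at 2-fold. The red curve is displaced to the left in the spleen genotype comparison (median −0.25) and in the WT organ comparison (median −0.28), and nearly centred in the other 2.

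The highest differences in spleen were those of 1500009L16Rik. The printed sequences of chr10:83181374-83249774_F read 29.9, 569, 583 and 467 for sequence 1, 70.0, 1236, 1257 and 1099 for sequence 2, 76.7, 1436, 1462 and 1292 for sequence 3, and 92.3, 1776, 1640.2 and 1534 for sequence 4, in the order of arrays used above. WT spleen alone was low, and the other 3 arrays were close to each other. The differences of deltaDC from WT were 3.94 to 4.06 in spleen and −0.36 to −0.14 in thymus. Over the stretch from Appl2 to C230099D08Rik, 6 of 7 forward sequences measured in spleen were at least 2-fold higher in deltaDC (median 4.03, or 2.55 with normexp background correction), and none of 8 reverse ones. The 1500009L16Rik gene probe, which lies inside the region on the same strand, read 4.07 in WT spleen, below background, and 99.5, 151 and 126 on the other arrays. Of the marker lists given above, 7 of 9 neutrophil, 5 of 6 erythroid, 5 of 11 dendritic cell and macrophage, 5 of 10 B cell and 6 of 12 NK and innate-like markers had their lowest unscaled signal on WT spleen, as did all 6 T cell markers. Among the remaining lists, 4 of 10 Treg, 3 of 6 thymic epithelium and 0 of 2 CD8 T cell markers were lowest there. WT spleen also had the lowest 75th percentile of the 4 arrays, and many of these signals were below background there. The other 6 NK and innate-like markers were lowest on WT thymus, and that list's median difference between WT organs was −0.13. The part of these cells in the result was not tested.

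Morrbid is a long non-coding RNA next to the pro-apoptotic gene Bcl2l11 (Bim) that is known from short-lived myeloid cells. In chr2:128142035-128142481_R, printed sequence 1 read 49.8, 59.2, 14.9 and 16.5, the thymus values below background. Sequence 2 read 26.1, 122, 18.3 and 21.4, and sequence 3 read 26.0, 110, 26.2 and 27.8. In chr2:128137419-128141735_R, the 3 sequences read 53.2, 174, 43.8 and 35.2, then 36.8, 133, 40.7 and 35.4, then 40.9, 131, 38.3 and 33.6. A sequence of chr2:128211990-128215223_R read 294, 835, 307 and 349. DeltaDC spleen was highest in all 7, and the other arrays lay close together in 6 of them. On the reverse strand between Bcl2l11 and Anapc1, 8 of 13 measured were at least 2-fold higher in deltaDC spleen (median 1.31), and 9 of 12 lower in deltaDC thymus than in deltaDC spleen (median −1.36). With normexp background correction these counts were 1 and 5. None of 12 differed 2-fold between the thymus arrays or between the WT arrays. The Morrbid gene probe read 72.5 on deltaDC spleen and was below background on the other 3. Bcl2l11 probes read 56.4, 46.1, 75.1 and 89.8, and 86.7, 128, 144 and 190. On deltaDC spleen, 7 of the 9 neutrophil markers and 11 of the 12 NK and innate-like markers also had their highest unscaled signal, as did 2 of the 11 dendritic cell and macrophage markers. The same held for 4 of 6 T cell, 1 of 10 Treg, 1 of 10 B cell and 1 of 6 erythroid markers. It held for 0 of 2 CD8 T cell and 0 of 6 thymic epithelium markers. Of 10 NK and innate-like markers measured, 9 were at least 2-fold higher in deltaDC than in WT spleen (median 3.71), and 7 of 10 lower in deltaDC thymus than in deltaDC spleen (median −2.49). The part of these cells in the result was not tested.

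On the forward strand between Klf14 and Mkln1, 5 of 11 measured sequences were at least 2-fold higher in deltaDC spleen (median 0.67, or 0.32 with normexp background correction). They lay in chr6:31170350-31287353_F and chr6:31233512-31241062_F, beyond the reverse-strand regions given above and not opposite to them. The forward sequence of chr6:31233512-31241062_F printed above read 44.1, 422, 50.7 and 71.2, a spleen difference of 3.06. Its reverse partner, which shares 58 bases, read 3.85, 3.58, 4.07 and 4.11, below background on every array. A second forward sequence of this region read 24.4, 267, 48.0 and 62.7. Both forward sequences stood out on deltaDC spleen alone. The summed neutrophil and NK and innate-like markers were also highest there, and their part in the result was not tested.

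The lowest group in deltaDC spleen lay on the forward strand between Igsf11 and Lsamp on chromosome 16, where RefSeq places 8 genes between the 2, all long non-coding RNAs or pseudogenes. In chr16:40471828-40472481_F, printed sequence 1 read 233 in WT spleen, 63.0 in deltaDC spleen, 63.0 in WT thymus and 28.8 in deltaDC thymus. Sequence 2 read 359, 75.7, 104 and 31.1, and sequence 3 read 409, 100.2, 139 and 31.5. In chr16:40267386-40268181_F, the 3 sequences read 197, 50.7, 69.3 and 13.5, the last below background, then 348, 86.3, 85.4 and 25.7, then 369, 87.3, 95.7 and 32.3. WT spleen was highest and deltaDC thymus lowest in all 6. Of the forward sequences measured, 15 of 17 were at least 2-fold lower in deltaDC spleen (median −2.16) and 12 of 14 lower in WT thymus than in WT spleen (median −1.87). In thymus, 5 of 7 were lower in deltaDC (median −1.61), and 1 of 7 with normexp background correction (median −0.70). No measured sequence on the reverse strand, 3 in each comparison, differed 2-fold. The probe of Gm16498 in this stretch read 62.1, 26.1, 24.0 and 6.84, the last below background, and the gene probes of Igsf11 and Lsamp were below background on every array.

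Bounds add sequences that were bright on 1 spleen array only. The largest was that of chr9:55925993-55926583_R, with a signal of 226 in WT spleen and 3.69, below background, in deltaDC spleen, at least 27.8-fold higher in WT. In the other direction, a sequence of chr10:83185606-83225506_F, again at 1500009L16Rik, read 19.7, below background, in WT spleen and 390 in deltaDC spleen, at least 17.3-fold higher in deltaDC.

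The comparison of thymic Tregs between genotypes had the fewest 2-fold differences of the 4. Sequences between Plekha2 and Tacc1 were brighter in deltaDC thymus, and those between Igsf11 and Lsamp dimmer, as given above. Of 4762 position-named sequences measured, 39 (0.819%) were at least 2-fold higher in deltaDC and 68 (1.43%) lower, while 0.796% of all probes were higher and 0.872% lower. The median was −0.02, and that of all probes 0.04. Of the 4378 sequences measured on every array, 0 were 2-fold or more higher in deltaDC in both organs (0.171% of all probes were) and 18 lower in both (0.203% of all probes), with the sequences between Igsf11 and Lsamp in the first 4 places by the smaller of their 2 differences. The fifth was a sequence of chr2:176610409-176612864_F, at 214, 88.9, 203 and 69.0. The spleen and thymus genotype differences use no array in common, and across the 4378 sequences they had Pearson's r of 0.27, beside 0.18 across the other probes. In the additive fit (limma), 0 position-named sequences were called for genotype (0% of all probes), the smallest adjusted p was 0.69, and 646 had an unadjusted p under 0.05. The count was also 0 in the 6 other settings of the genotype fit that were run, with 241 to 1325 unadjusted.

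**Figure D4:**
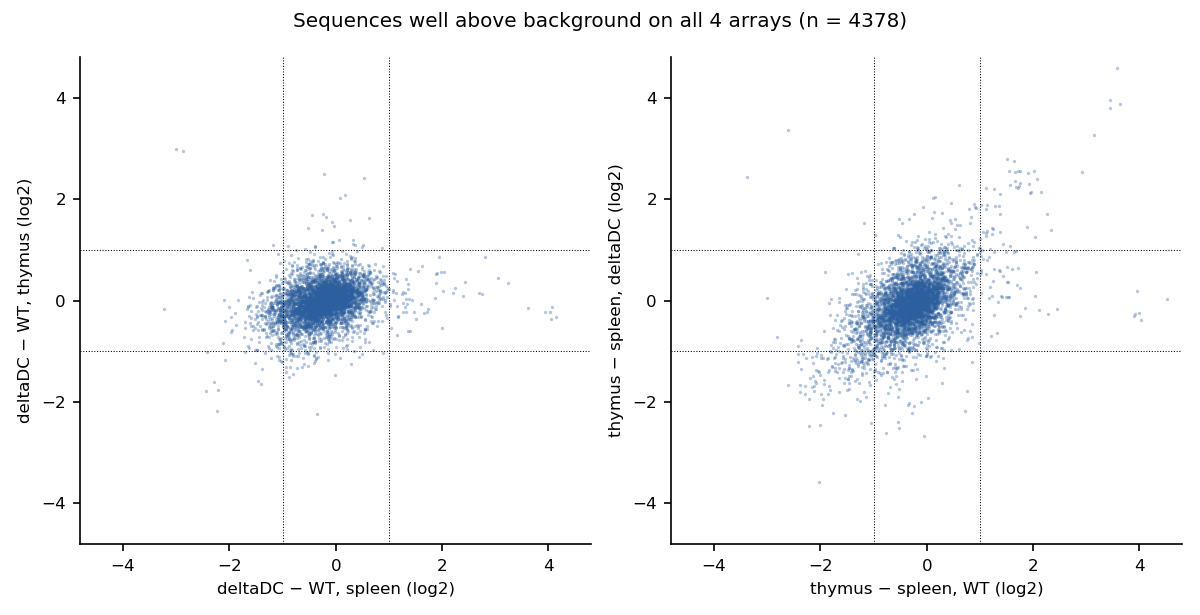
Log2 differences of the 4378 position-named sequences measured on all 4 arrays, 1 point each. Left, deltaDC minus WT in spleen (x axis) against thymus (y axis). Right, thymus minus spleen in WT (x axis) against deltaDC (y axis). Dotted lines mark 2-fold. The right cloud is more elongated (r of 0.56) than the left (0.27), and a few single points lie in opposite corners.

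In chr8:26212577-26218527_R, between Plekha2 and Tacc1, printed sequence 1 read 26.9, 47.8, 56.2 and 178, sequence 3 read 21.4, 35.3, 27.6 and 152, and sequence 2 read 26.1, 16.3 (below background), 33.3 and 136. Sequence 4 was below background on both spleen arrays and read 26.7 in WT and 63.6 in deltaDC thymus. DeltaDC thymus was highest in all 4, and all 4 were at least 2-fold higher there than in WT thymus (median 1.81). The fifth sequence of the region was above background on deltaDC thymus alone, at 36.5. With normexp background correction, 2 of 4 passed 2-fold. On the forward strand of the same interval, 2 sequences were measured in thymus and neither differed 2-fold. Between the same 2 arrays, 5 of 8 measured B cell markers, 5 of 6 neutrophil markers and 4 of 4 erythroid markers were at least 2-fold higher in deltaDC thymus, and their part in the result was not tested. The Tacc1 probe, a gene of a centrosomal coiled-coil protein, read 484, 659, 516 and 508. The largest bound was that of chr15:74484699-74485279_F, below background in WT thymus and at 233 in deltaDC thymus, at least 13.8-fold higher.

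For 3 of the 4378 sequences measured on every array, the genotype differences were past 2-fold and opposite in the 2 organs, as they were for 14 of 24577 over all probes (0.057%). Sequence 2 of chr12:88235624-88264465_R, printed above, read 131 in WT spleen, 18.9 in deltaDC spleen, 25.6 in WT thymus and 207 in deltaDC thymus. The other 4 sequences of that region were not measured on both arrays in any comparison. The only sequence of chr2:153325670-153352170_R read 355, 55.5, 40.5 and 322, so WT spleen and deltaDC thymus were again the high arrays. A sequence of chr9:88333945-88342370_R read 49.0, 24.9, 29.9 and 65.3. The 2 others measured in its region had medians of −0.76 in spleen and −0.21 in thymus. The lowest spleen difference of all, −3.22, belonged to 1 sequence of chr4:8865575-8899400_R, at 217, 26.7, 32.5 and 29.7, while another sequence of that region was 0.31 higher in deltaDC spleen.

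Few regions lay at genes of T cell biology. Of 74 such genes listed, 7 had a position-named region within 10000 bases of a probe: Ikzf2, Prdm1, S1pr1, Bcl2l11, Cd69, Nr4a1 and Socs3, with 12 regions and 63 sequences, 31 of them measured on all 4 arrays. At least 2-fold different were 3 of 33 measured in spleen between genotypes (all lower in deltaDC, all in chr11:117835849-117842574_F at Socs3), 0 of 33 in thymus, 3 of 32 between organs in WT (all lower in thymus, 2 at Socs3 and 1 at Ikzf2) and 3 of 33 in deltaDC (1 at Cd69 higher, and 1 each at Ikzf2 and Bcl2l11 lower). Over all probes measured, 7.82%, 1.67%, 9.79% and 10% were at least 2-fold different in either direction in these 4 comparisons, so these counts show nothing particular to the T cell loci. At Socs3, a cytokine signalling inhibitor, the forward-strand median was −1.17 in spleen between genotypes, and that of the Socs3 gene probes 0.08. The brightest were reverse-strand sequences on the side of Cd69, an early activation antigen that holds T cells in tissue. In chr6:129151512-129208737_R, 3 of them read 7848, 9666, 10943 and 12621, then 9463, 11704, 13121 and 15786, then 5486, 6852, 7870 and 9600. The order of arrays was the same in all 3, and none of 9 measured differed 2-fold in any comparison. The Cd69 gene probe read 2840, 2708, 2532 and 2533.

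Of 39 known long non-coding RNA genes listed, 25 were on the array by name and 12 had a region: Malat1, Neat1, Gas5, Snhg3, Tug1, Airn, Mirg, Dleu2, Mir17hg, Pvt1, Ftx and Jpx. Of their 197 sequences in 46 regions, 105 were measured on all 4 arrays. At least 2-fold different were 2 of 111 in spleen between genotypes (both lower in deltaDC, at Mir17hg and Ftx), 3 of 114 in thymus (1 at Tug1 higher, 1 at Pvt1 and 1 in a region shared by Malat1 and Neat1 lower), 4 of 111 between organs in WT (all lower in thymus) and 7 of 113 in deltaDC (6 higher, 1 lower), beside the same 7.82%, 1.67%, 9.79% and 10% of all probes. At Airn, an imprinted transcript antisense to Igf2r, a sequence of chr17:12990484-13018375_F read 768, 460, 1021 and 1148, a deltaDC organ difference of 1.23. Reverse-strand sequences at Malat1 in chr19:5801802-5802597_R had medians of −0.39 in spleen and −0.26 in thymus between genotypes. A Malat1 gene probe differed by −0.47 in spleen and by −1.19, past 2-fold, in thymus. The 3 sequences of chr14:115443612-115445950_F at Mir17hg, the host of the miR-17 to miR-92 cluster, had medians of −0.52 and 0.46.

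Sequences of the same region and strand were then set beside each other. Where at least 3 were measured, the median SD within a region was 0.18 to 0.22 over the 4 comparisons, while the SD of region medians was 0.33 to 0.62. Of the sequences at least 2-fold different in such regions, those whose region had a median past 2-fold in the same direction were 184 of 297 in the spleen genotype comparison, 303 of 416 between WT organs and 183 of 271 between deltaDC organs. In the thymus genotype comparison they were 29 of 69, while 23 of the 69 lay in regions with a median under 0.5 in that direction. Regions in which every measured sequence was at least 2-fold different numbered 7 higher (0.931%) and 21 lower (2.79%) of 752 in deltaDC spleen. Over all names on the array with at least 3 measured sequences, the shares were 0.952% and 1.52%. Those names include the regions themselves, so their shares are no independent comparison, and 24 of the 1575 names were lower. In deltaDC thymus, 1 was higher and 1 lower of 734 (0.136% each, names 0.0635% and 0.127%), the Plekha2 to Tacc1 and Igsf11 to Lsamp regions printed above. Between organs, 9 regions were higher (1.24%) and 47 lower (6.46%) in thymus of 728 in WT. Of names, 1.03% were higher and 3.49% lower, the latter 54 of 1546. In deltaDC, 6 regions were higher (0.826%) and 24 lower (3.31%) of 726, beside 0.965% and 2.32% of names. In 5 of the 9 regions higher in WT thymus, the nearest gene probe was that of Ptprc or Sox4. Others of this kind were chr5:96591892-96606467_F, 61423 bases from the Mrpl1 probe, with a median of 1.86, and chr9:14460976-14488051_F, 18751 bases from that of Piwil4, with 1.54. Both were higher in deltaDC than in WT spleen too, by 2.25 and 1.27. The WT spleen array is in both comparisons, so a low value there raises both differences.

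The strands of an interval seldom shared a difference. Of the 1067 intervals spotted on both strands, 420 to 462 had both strands above background on an array and 410 to 429 had 1. Among 360 to 378 intervals measured on both strands in a comparison, both strands were at least 2-fold different in the same direction in 1 (spleen genotype), 0 (thymus genotype), 5 (WT organ) and 3 (deltaDC organ), and 1 strand only in 43, 11, 47 and 32. The strands' medians had r of 0.11, 0.10, 0.20 and 0.17 across these intervals, which share arrays and are not independent. The same held for single stretches of DNA. In 1254 pairs of sequences that share at least 40 bases on opposite strands, 106 pairs (8.45%) were measured on all 4 arrays on both strands, 339 (27.0%) on all 4 arrays on 1 strand and on none on the other, and 490 (39.1%) on no array on either. At Cd69, the reverse sequence printed above read 5486, 6852, 7870 and 9600, and the forward one, with 58 shared bases, 49.3, 33.6, 53.0 and 52.1. Of 119 to 126 such pairs measured in a comparison, 0 to 19 had a 2-fold difference on either strand, and at most 1 had it on both.

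Finally, regions were set beside the nearest probe with a RefSeq accession on the same chromosome. Distances are to that probe, which mostly lies near the end of a gene, and not to a gene body. In 344 regions a gene probe lay inside on the same strand, so that both may read 1 transcript. There the region's median difference followed that of the gene probe, with r of 0.50 in the spleen genotype comparison (n = 174 regions), 0.38 in thymus (n = 175), 0.63 between WT organs (n = 168) and 0.68 between deltaDC organs (n = 177). With the gene probe inside on the opposite strand, r was 0.19, 0.24, 0.07 and 0.34. Within 10000 bases outside the region it was 0.13, 0.04, 0.21 and 0.27, and from 10000 to 50000 bases 0.14, −0.01, 0.16 and 0.15. Beyond that, where a gene probe is far away, it was 0.18, 0.09, 0.39 and 0.39. These are descriptions across regions that share the same arrays.

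The lower sequences were most frequent just downstream of gene probes on the same strand. Among regions within 10000 bases downstream of a gene probe on its own strand, 104 of 905 measured sequences (11.5%) were at least 2-fold lower in deltaDC than in WT spleen, 21 of 809 (2.6%) in deltaDC than in WT thymus, 166 of 864 (19.2%) in WT thymus than in WT spleen, and 79 of 814 (9.7%) in deltaDC thymus than in deltaDC spleen. Over all position-named sequences the shares lower were 7.66%, 1.43%, 10.67% and 5.68% in the same order. Over all probes they were 3.54%, 0.872%, 4.96% and 5.35%. Upstream on the same strand the counts were 8 of 192 (4.17%), 2 of 201 (0.995%), 12 of 190 (6.32%) and 3 of 196 (1.53%). The difference between these classes was not tested, since sequences of 1 region are not replicates.

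**Figure D5:**
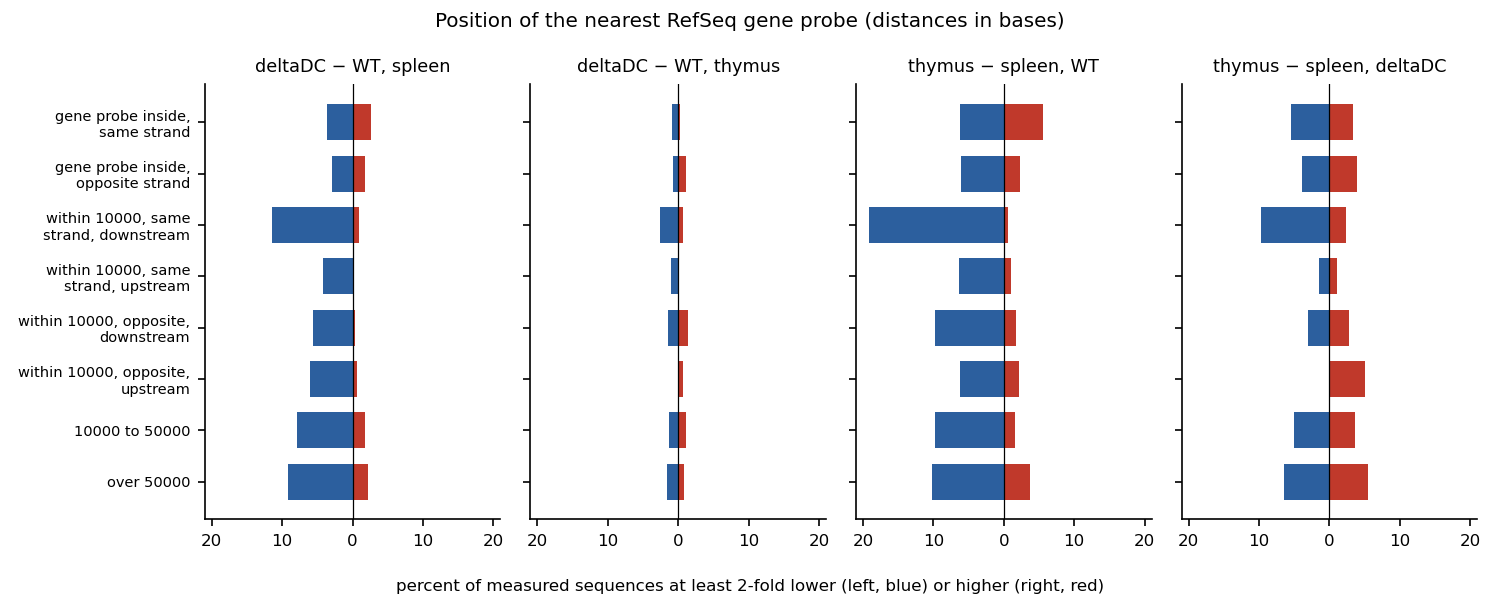
Percent of measured position-named sequences at least 2-fold lower (bars to the left, blue) or higher (bars to the right, red) in each of the 4 comparisons, by where the nearest RefSeq gene probe lies (rows, distances in bases). The bars for the same strand, downstream within 10000 bases are the longest to the left in each panel, reaching 19.2% between WT organs.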

How the data were processed

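Arrays were of 1 Agilent mouse design, on 1 slide and in 1 scan. Each deposited scanner file gives intensity, background-subtracted and detrended by Agilent Feature Extraction 10.7.3.1 per the file headers, with other columns, such as the flag for well above background, coded 0 or 1. The authors also deposited a matrix of log2 values, used as an alternative. Its scale and direction were checked against each scanner array (r of 0.988 to 0.991 over the position-named spots), and any offset or rescaling behind its values is unknown.

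Intensities of 59305 non-control spots were set to log2 after outlier spots (110 to 168 per array) were removed, repeated spots were averaged, and each array's 75th percentile was subtracted. No spot was saturated. Gene probes were named through RefSeq accessions (27509) or symbols (3549), and 8429 kept the deposited name. RefSeq (GRCm38.p6) gave names and gene order only. The fit used limma 3.58.1 in R 4.3.3 (lmFit and eBayes, prior degrees of freedom 2.20, two-sided). Other steps used Python 3.11.15 with pandas 2.3.3, NumPy 2.4.6 and Matplotlib 3.10.9. Counting and fit were checked on simulated data with spot noise alone, which holds no variation between mice or labellings.

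The members, gene lists and marker lists were chosen with earlier results of these data known. The naming rule took the 5 highest and 5 lowest differences and 2 largest bounds per comparison, and the 5 highest and lowest organ calls. It also took up to 5 sequences past 2-fold the same way in both organs or genotypes, those at listed genes, and the 5 brightest. Not every sequence that met the rule is described. Sequences past 2-fold in opposite directions, the other sequences of each stretch between flanking genes, the opposite-strand pairs, the strand and direction of gene probes, the array set apart and the regions with every sequence past 2-fold were added after the data were seen. The Mrpl1 and Piwil4 regions are among those added. The sequences with Wdfy4 and Cxcr3 as nearest gene probes lay outside the 5 highest organ calls. Sequences on 1 chromosome met the rule and are not reported here. Alternatives were another background correction, 2 scalings, the matrix, other filters and other fit settings.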

Additional observations from a re-analysis of the deposited data

Results flagged for a closer look

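The genotype difference went in opposite directions in the 2 organs for 3 sequences, each at least 2-fold in both. The difference of the differences was not tested, since it would rest on 4 single arrays. For the only sequence of chr2:153325670-153352170_R, deltaDC minus WT was −2.88 in spleen and 2.95 in thymus on the log2 scale. For sequence 2 of chr12:88235624-88264465_R it was −3.0 and 2.98, and for a sequence of chr9:88333945-88342370_R −1.18 and 1.09.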

How the results depend on the processing

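The normexp correction adds an offset of 50, which shrinks the log2 differences of dim sequences by construction. A fall of counts at a fixed 2-fold therefore cannot tell whether the background estimate itself matters. With normexp background correction, the counts of sequences at least 2-fold different fell from 454 to 97 (spleen genotype), to 12 (thymus genotype, from 39 higher and 68 lower), from 619 to 182 (WT organ) and from 441 to 118 (deltaDC organ), and of the 12 in thymus 6 were higher in deltaDC, 50% against 36.4% before. Without the filter on dim spots they were 2683, 1844, 2988 and 2675, and with a signal of at least 100 on the brighter array 245, 51, 358 and 271. Median scaling (446, 104, 609 and 440), quantile normalization (416, 102, 616 and 449) and the deposited matrix (507, 142, 701 and 486) moved none of the 4 by over 1.5 times. Under the flag for a positive and significant signal, 9930, 9810, 9336 and 9341 sequences were detected (spleen WT and deltaDC, then thymus WT and deltaDC), and with a signal of at least 50 in addition to the main flag 3350, 3333, 3274 and 3291. The additive fit for organ (limma) called 0.431% of the sequences tested, and 0.0228% (above background on all 4 arrays), 0.661% (no filter), 1.58% (intensity trend), 2.51% (normexp), 0% (quantile, 1350 with an unadjusted p under 0.05), 0% (deposited matrix, 1383 unadjusted) and 1.33% (organ alone). The genotype fit called 0% in each setting run, the deposited matrix not among them. The correlation of regions with a gene probe inside or within 10000 bases was 0.22, 0.14, 0.28 and 0.37, and 0.13, 0.044, 0.21 and 0.27 without regions that hold a gene probe, and 0.18, 0.075, 0.23 and 0.28 within 50000 bases. The additive fit sets the organs against each other within a genotype, and the fit of organ alone drops that pairing. A block by replicate number and leaving out a replicate could not be run because each group has 1 array. Low signal limits the rest: under a signal of 50 the spot SD is 0.21 to 0.23, and 58.5% of the sequences were above background on no array.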
